A study of Mus musculus with 12 samples.

Results

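The collagen genes Col1a1, Col1a2, Col3a1, Col5a2 and Col8a1 were followed across left ventricles with and without myocardial infarction (MI) and with and without miR-150 in cardiomyocytes. The array files name no genes, so a transcript received its name where its fold and p, computed from the deposited log2 values, equalled those of an entry in the study's lists of changed genes. The lists served as a key to names and to nothing else. In this way 863 gene symbols were named, 6 of them collagens, and 5 of these 6 are described here, each with 1 transcript. The 5 genes were therefore chosen by measured differences: Col1a1 and Col1a2 by MI miR-150 fl/fl against sham miR-150 fl/fl and by sham miR-150 cKO against sham miR-150 fl/fl, Col3a1 by the first of these, Col5a2 by MI miR-150 cKO against MI miR-150 fl/fl, and Col8a1 by all 3. In the comparisons that chose a gene its values are given as a description, with no test. Collagens that did not enter those lists have no name here.

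Collagens are secreted proteins of 3 chains wound into a triple helix. Collagens I, III and V are fibrillar: type I forms thick, stiff fibrils and, with type III, makes up most of the collagen of the ventricle, and type V is built into type I fibrils and limits their width. Collagen VIII is a short-chain collagen that forms networks, best known from vessel walls and the basement membrane beneath endothelium. After an infarct, fibroblasts lay down collagen as dead muscle is replaced by scar, and collagen is also deposited between muscle cells at a distance from the scar.

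RNA came from the left ventricles of 12 C57BL/6J mice, 1 mouse per array, in 4 groups of 3. All mice carried floxed miR-150 alleles (miR-150 fl/fl), and the miR-150 cKO mice also carried alpha-MHC-Cre, which is active in cardiomyocytes, so that the other cells of the ventricle keep the microRNA. The miR-150 fl/fl controls had no Cre, and a group with Cre and unfloxed alleles was not analysed here. In the MI groups the left anterior descending artery was tied for good, and sham mice had the operation without the tie. Hearts were taken 4 weeks after surgery, at 13 to 15 weeks of age, from 1 male and 2 females in each group. Age was not balanced between genotypes: all MI miR-150 cKO mice were 15 weeks old and all MI miR-150 fl/fl mice 14 weeks. Replicates 1, 2 and 3 were 15, 14 and 15 weeks old in sham miR-150 cKO and 14, 14 and 13 in sham miR-150 fl/fl. Age and genotype thus cannot be told apart between the MI groups, and age was not a term in any fit. The level of miR-150 itself is not analysed here. Scan records placed MI miR-150 fl/fl replicate 3 on 1 slide with all arrays of MI miR-150 cKO, and the other 8 arrays on another. Between 74.2% and 90.3% of transcripts were well above background on an array, the lowest shares being on sham miR-150 cKO replicates 2 and 3, which lie in the second row of their slide with MI miR-150 fl/fl replicates 1 and 2. All 5 collagen transcripts were well above background on all 12 arrays. Levels below are log2 signals minus the 75th percentile of the array, so that 0 is the signal of that percentile, and a difference of 1 is a doubling. Levels compare arrays for a gene, not genes with each other, because probes differ in brightness.

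All 5 genes were higher in MI miR-150 fl/fl and in sham miR-150 cKO than in sham miR-150 fl/fl, as described further on. The bases before the start are shown for the 3 of them that had an entry in the set of promoters used. They are the 250 bases before the RefSeq transcript start in GRCm38.p6, printed 5′ to 3′ on the strand of the gene: Col1a2 at chr6:4505368-4505617 on the plus strand, Col3a1 at chr1:45311288-45311537 on the plus strand and Col8a1 at chr16:57754738-57754987 on the minus strand. Capitals mark matches on either strand to TATAAA, the TATA box, CCAAT, the CCAAT box, GGGCGG, the core of the site bound by Sp1, CAGACA, a site bound by Smad proteins, and TGACTCA, the AP-1 site. The set of promoters held no entries for Col1a1 and Col5a2.
Col1a2: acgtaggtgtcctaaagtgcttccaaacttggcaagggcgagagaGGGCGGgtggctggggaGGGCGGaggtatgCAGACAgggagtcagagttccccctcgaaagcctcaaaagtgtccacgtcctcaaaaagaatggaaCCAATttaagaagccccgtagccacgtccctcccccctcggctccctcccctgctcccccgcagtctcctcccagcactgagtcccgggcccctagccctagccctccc
Col3a1: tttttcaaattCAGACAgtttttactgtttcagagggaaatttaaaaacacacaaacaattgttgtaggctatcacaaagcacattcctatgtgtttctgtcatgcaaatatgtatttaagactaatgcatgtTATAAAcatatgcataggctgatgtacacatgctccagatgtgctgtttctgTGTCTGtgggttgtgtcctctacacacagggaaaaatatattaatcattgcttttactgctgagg
Col8a1: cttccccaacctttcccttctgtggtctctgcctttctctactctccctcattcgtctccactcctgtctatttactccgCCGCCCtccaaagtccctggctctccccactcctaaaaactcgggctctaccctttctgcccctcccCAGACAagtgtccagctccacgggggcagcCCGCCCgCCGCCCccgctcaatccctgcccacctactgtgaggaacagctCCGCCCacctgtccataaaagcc
CAGACA or its complement occurred in all 3, against 17.1% of the 32851 windows of this length in the table. It stood 175 bases before the start in Col1a2, 239 and 65 bases before it in Col3a1 and 103 bases before it in Col8a1. GGGCGG or its complement, found in 32.7% of windows, occurred at 2 places in Col1a2, 4 in Col8a1 and 0 in Col3a1. TATAAA, found in 12.4% of windows, occurred in Col3a1, 117 bases before the start, and CCAAT, found in 33.8%, occurred in Col1a2, 109 bases before it. TGACTCA, in 4.46% of windows, occurred in 0 of the 3. The Col3a1 window held 35.2% G and C, against 62.0% in Col1a2, 60.8% in Col8a1 and a median of 52.4% over all windows. These matches describe letters and were not tested for binding.

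Both chains of type I collagen were lowest in sham miR-150 fl/fl hearts and highest, with the widest spread, in MI miR-150 cKO hearts. Col1a1, which encodes the chain present in 2 copies in each molecule, had levels of -3.16, -2.69 and -2.95 in sham miR-150 fl/fl replicates 1, 2 and 3. Its levels were -1.99, -1.88 and -1.97 in MI miR-150 fl/fl, -2.12, -2.23 and -2.59 in sham miR-150 cKO, and -1.82, -0.31 and -1.01 in MI miR-150 cKO. No neighbouring groups in that order of means (sham miR-150 fl/fl, sham miR-150 cKO, MI miR-150 fl/fl, MI miR-150 cKO) overlapped for Col1a1. The Col1a1 probe was dim, with background-subtracted signals of 48.2 to 376.6. Col1a2, which encodes the partner chain, had levels of 2.49, 3.10 and 2.65 in sham miR-150 fl/fl and 4.16, 4.05 and 4.13 in MI miR-150 fl/fl. Its levels in sham miR-150 cKO were 3.67, 3.55 and 3.33, and in MI miR-150 cKO they were 3.69, 4.98 and 4.30. The order of the group means was that of Col1a1, but here the MI groups of the 2 genotypes overlapped.

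For both type I genes the MI miR-150 fl/fl arrays lay close together, with an SD of 0.059 for Col1a1 and 0.054 for Col1a2. Among the MI miR-150 cKO arrays the SD was 0.76 and 0.64. In that group replicate 1 was the lowest and replicate 2, the male, the highest for both genes.

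Col3a1, the only chain gene of type III collagen, separated sham miR-150 fl/fl from the 3 other groups, whose arrays lay within 3.57 to 4.84. Its levels were 1.24, 3.13 and 2.78 in sham miR-150 fl/fl, 4.31, 4.53 and 4.33 in MI miR-150 fl/fl, 4.20, 3.78 and 3.57 in sham miR-150 cKO and 4.05, 4.84 and 4.20 in MI miR-150 cKO. The infarcted hearts of both genotypes overlapped, and so did the sham and MI arrays of miR-150 cKO, while all MI miR-150 fl/fl arrays were above those of sham miR-150 cKO. Col5a2, which encodes a chain of type V collagen, had levels of -2.72, -0.74 and -1.03 in sham miR-150 fl/fl and -0.46, -0.57 and -0.14 in MI miR-150 fl/fl. The levels of sham miR-150 cKO, 0.08, -0.51 and -0.32, overlapped the latter. In MI miR-150 cKO they were 0.57, 0.84 and 0.54, above every array of the other groups. Sham miR-150 fl/fl replicate 1, the male of its group, was far below its group for Col3a1 and Col5a2, and both comparisons below that use this group also give the 5 genes without it.

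Col8a1, a chain gene of type VIII collagen, was the gene in which sham miR-150 cKO hearts stood highest relative to infarcted controls. Its levels were 2.66, 3.60 and 3.11 in sham miR-150 fl/fl, 4.08, 3.53 and 4.13 in MI miR-150 fl/fl, 4.01, 4.53 and 4.05 in sham miR-150 cKO and 4.41, 4.99 and 4.82 in MI miR-150 cKO. In that order of means each group overlapped the next, while sham miR-150 fl/fl and sham miR-150 cKO, and the MI groups of the 2 genotypes, did not overlap.

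**Figure D1:**
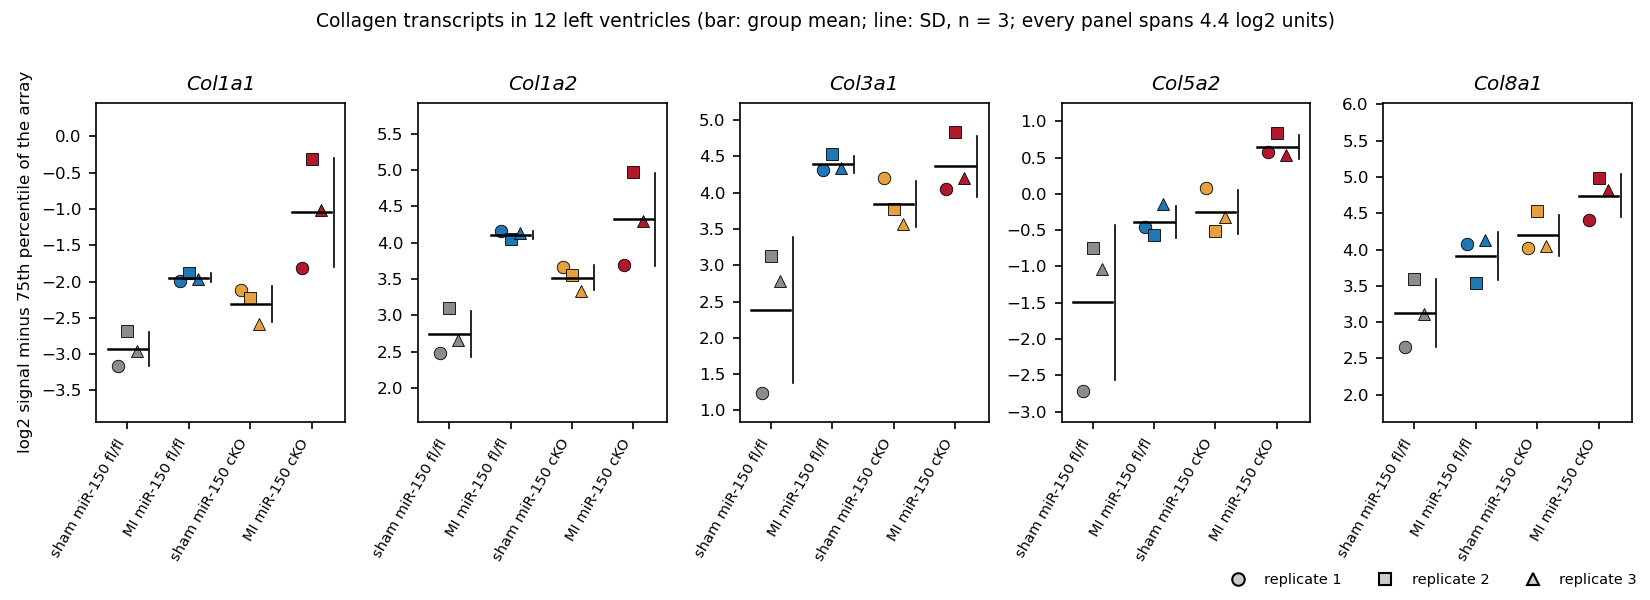
Levels of the 5 collagen transcripts (log2 signal minus the 75th percentile of the array) in 4 groups of 3 arrays; points are arrays with the replicate number as the shape, bars are group means and vertical lines are SDs. Sham miR-150 fl/fl has the lowest mean for every gene, its replicate 1 lies far below its group for Col3a1 and Col5a2, and MI miR-150 cKO replicate 2 is the highest of its group for every gene.

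Infarction in miR-150 fl/fl controls was the comparison that chose 4 of the 5 genes, and all 5 were higher after MI. The log2 difference was 0.98 (SE 0.30) for Col1a1, 1.37 (SE 0.27) for Col1a2, 2.01 (SE 0.41) for Col3a1 and 0.79 (SE 0.26) for Col8a1, which were chosen for it. Col5a2, which was not, was higher by 1.11 (SE 0.42, 95% interval 0.19 to 2.03), with an adjusted p of 0.99999 from limma. Its MI miR-150 fl/fl arrays were among those that chose it. Past the study's limits, 1.5-fold with an unadjusted p under 0.05, were 5 of 5 collagens, against 0.881% of the 54232 transcripts tested that were higher past them. The arrays did not overlap for 4 of 5, all but Col8a1, against 3.84% of transcripts with every MI array above every sham array, and nothing is read from these counts for the genes so chosen. The median difference of the 5 was 1.11, and that of all transcripts was -0.01. When sham miR-150 fl/fl replicate 1 was left out, Col5a2 was higher by 0.50, Col3a1 by 1.43, Col8a1 by 0.56, Col1a1 by 0.87 and Col1a2 by 1.24, and 3 of 5 were past the limits. Col5a2, at 0.98, also fell short of them without MI miR-150 fl/fl replicate 3. Within the slide that holds 2 MI miR-150 fl/fl arrays and the 3 sham miR-150 fl/fl arrays, the differences were 0.99, 1.36, 2.03, 0.98 and 0.68 for Col1a1, Col1a2, Col3a1, Col5a2 and Col8a1. With slide and row as a block, 2 of 5, Col1a2 and Col3a1, were past the limits.

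Loss of miR-150 in cardiomyocytes without infarction was compared in sham hearts, all on 1 slide. All 5 collagens were higher in sham miR-150 cKO, and no array overlapped for any of the 5, against 5.05% of transcripts with every miR-150 cKO array higher. For the genes this comparison chose, the log2 difference was 0.62 (SE 0.30) for Col1a1, 0.77 (SE 0.27) for Col1a2 and 1.07 (SE 0.26) for Col8a1. Col3a1 was higher by 1.46 (SE 0.41, 95% interval 0.55 to 2.38, adjusted p of 0.509), and its sham miR-150 fl/fl arrays had helped to choose it. Col5a2 was higher by 1.25 (SE 0.42, 95% interval 0.33 to 2.17, adjusted p of 0.512), in a comparison that uses none of the arrays that chose it. Past the limits were 4 of 5, all but Col1a1, against 0.636% of transcripts higher past them. Arrays of this comparison had helped to choose every gene but Col5a2. Nothing is therefore read from this count or from that of genes without overlap. The median of the 5 was 1.07, and that of all transcripts was -0.03. When sham miR-150 fl/fl replicate 1 was left out, the difference of Col3a1 was 0.89, that of Col5a2 was 0.64, that of Col8a1 was 0.84 and that of Col1a1 was 0.51. The median of the 5 was then 0.64, and Col1a2, at 0.64, was no longer past the limits, nor was it, at 0.69, without sham miR-150 cKO replicate 1. Col1a1, at 0.62, came to be past them when replicate 1 or 2 of MI miR-150 cKO was left out, which changed only its SE. Sham miR-150 cKO replicate 1 lies in the same row as the sham miR-150 fl/fl arrays, and it was above all 3 of them for each of the 5 genes, by 0.81, 0.92, 1.81, 1.58 and 0.89 over their mean for Col1a1, Col1a2, Col3a1, Col5a2 and Col8a1. The share of all transcripts with that array above all 3 was not counted. Nothing is read from this either, since the comparison chose Col1a1, Col1a2 and Col8a1. With slide and row as a block 3 of 5 were past the limits, and Col1a2, at 0.92, was not. Col1a1 was past them with quantile normalization and with the authors' values, at 0.69 in both, and, at 0.62, with the compared groups alone and with the methods' unpaired test. That test did not put Col3a1 and Col5a2 past the limits (unadjusted p = 0.0739 and 0.124).

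The paper cites its lists for the other comparisons of groups and not for infarction in miR-150 cKO hearts. That this comparison chose none of the 5 genes is therefore no result about them. Col1a1 had the largest difference of the 5. Arrays of 1 of the groups compared here had helped to choose Col1a1, Col1a2 and Col5a2, and arrays of both had helped to choose Col8a1. The p of these genes is thus not independent of the choice. Col1a1 was 2.40-fold higher in MI than in sham miR-150 cKO (log2 difference 1.27, SE 0.30, 95% interval 0.59 to 1.94, adjusted p of 0.0612). Col1a2 was 1.75-fold higher (0.80, SE 0.27, 0.20 to 1.41, adjusted p of 0.138). Col5a2 differed by 0.90 (SE 0.42, -0.02 to 1.82, adjusted p of 0.250) and Col8a1 by 0.55 (SE 0.26, -0.04 to 1.13, adjusted p of 0.266). Col3a1, whose choice used none of these 6 arrays, differed by 0.52 (SE 0.41, -0.40 to 1.43, adjusted p of 0.497). Past the fold and unadjusted p limits were 2 of 5, the type I chains, against 4.6% of transcripts higher past them. Arrays did not overlap for 3 of 5, the type I chains and Col5a2, against 15.4% of transcripts with every MI array higher. At an adjusted p of 0.05 limma called 0 of the 5, against 2.1% of all transcripts, while 2 of the 5 had an unadjusted p under 0.05 with limma and 1 had with the methods' unpaired test. The share of all transcripts, 1139 in number, rests on the setting: there were 22 such calls with the slide as a block, 0 with the replicate block, with the compared groups alone and without replicate 2 or 3 of either group, and 4037 without sham miR-150 cKO replicate 1. The median of the 5 was 0.80, and that of all transcripts was 0.06. MI and sham miR-150 cKO arrays lie on different slides, so no value within a slide exists. With the slide as a block, which rests on the MI miR-150 fl/fl arrays of both slides, Col1a1 differed by 1.30 (unadjusted p = 0.0501) and Col1a2 by 0.78 (unadjusted p = 0.163), and 0 of 5 were past the limits. Without MI miR-150 cKO replicate 2, Col1a1 was higher by 0.90 and Col1a2 by 0.48, and only Col1a1 of the 5 was past the limits. Col8a1, at 0.71, came to be past them when either replicate 2 of sham miR-150 cKO or replicate 1 of MI miR-150 cKO was left out. Col5a2, at 0.90, did so without sham miR-150 fl/fl replicate 1 or 2, arrays that enter this comparison only through the SE, which the fit shares among groups.

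Between the infarcted hearts of the 2 genotypes, the collagens parted. Col5a2 and Col8a1, which this comparison chose, were higher in MI miR-150 cKO by 1.04 (SE 0.42) and 0.83 (SE 0.26). Col1a1 was higher by 0.90 (SE 0.30, 95% interval 0.23 to 1.58, adjusted p of 0.181). Its partner chain Col1a2 differed by 0.21 (SE 0.27, -0.39 to 0.81, adjusted p of 0.732) and Col3a1 by -0.03 (SE 0.41, -0.94 to 0.89, adjusted p of 0.983), intervals that still hold changes of over 1.5-fold. The MI miR-150 fl/fl arrays of these 3 genes had helped to choose them. Past the limits were 3 of 5, against 3.45% of transcripts higher past them. The same 3 did not overlap, against 15.4% of transcripts with every miR-150 cKO array higher. This comparison chose 2 of those 3, Col5a2 and Col8a1, so nothing is read from these counts. The median of the 5 was 0.83, and that of all transcripts was 0.0046. Within the slide that holds 1 MI miR-150 fl/fl array and all 3 of MI miR-150 cKO, the differences were 0.92, 0.19, 0.03, 0.79 and 0.61 for Col1a1, Col1a2, Col3a1, Col5a2 and Col8a1, and with the slide as a block 0 of 5 were past the limits (unadjusted p = 0.0709 for Col1a1). Without MI miR-150 cKO replicate 2, Col1a1 was higher by 0.53, no longer past the limits, and Col1a2 had a difference of -0.12. Col5a2 fell short of them, at 0.94 or more, without any 1 of the MI miR-150 cKO arrays or without MI miR-150 fl/fl replicate 1 or 2.

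**Figure D2:**
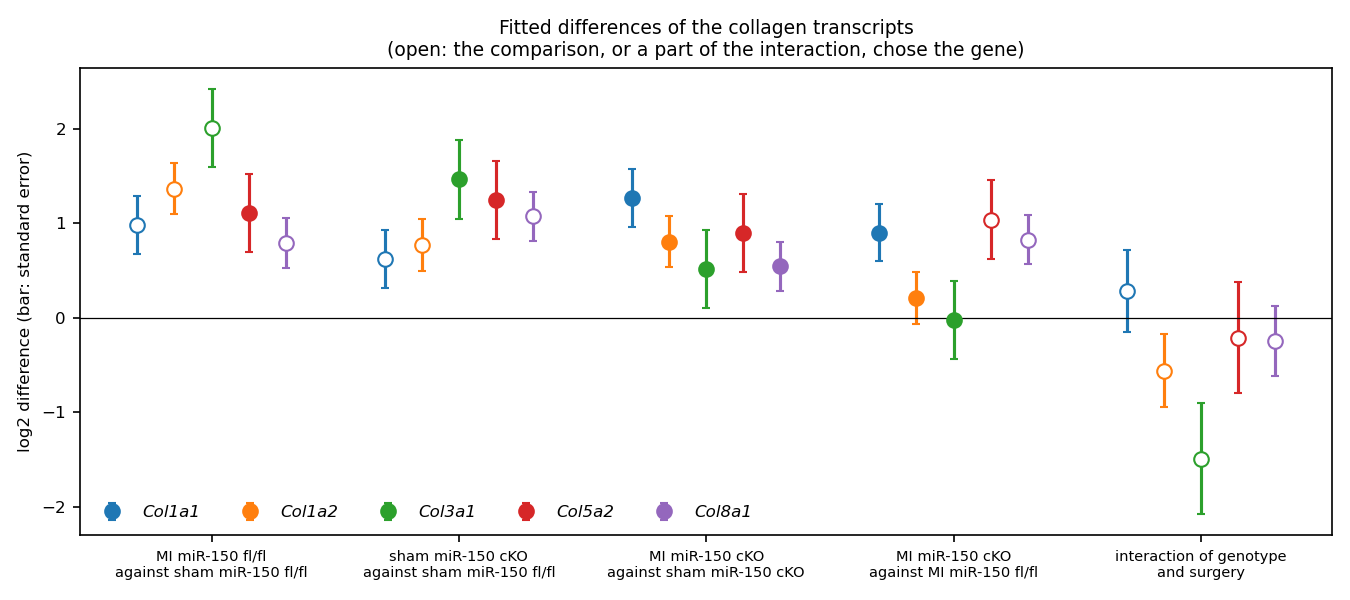
Fitted log2 differences (points) with standard errors (bars) of the 5 collagens in 4 comparisons and in the interaction of genotype and surgery; open points mark genes that the comparison, or a part of it, chose. All points of the first 3 comparisons lie above 0, and in MI miR-150 cKO against MI miR-150 fl/fl Col1a2 and Col3a1 lie near 0.

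The difference between the genotypes' responses to MI, the interaction, contains comparisons that chose each gene and is given as a description. It was 0.28 (SE 0.43) for Col1a1, -0.56 (SE 0.39) for Col1a2, -1.49 (SE 0.59) for Col3a1, -0.21 (SE 0.59) for Col5a2 and -0.25 (SE 0.37) for Col8a1. Col3a1 thus had a difference of 2.01 in controls and of 0.52 in miR-150 cKO, with sham miR-150 cKO already higher. It was past the limits, as were 2.46% of transcripts with a lower value, and without sham miR-150 fl/fl replicate 1 its value was -0.92. For Col5a2 that array turned the sign, to 0.40 without it. Col3a1 fell short of the limits, at -1.32 to -1.42, when replicate 1 of sham miR-150 cKO, replicate 2 of MI miR-150 fl/fl or replicate 1 or 3 of MI miR-150 cKO was left out. Without MI miR-150 cKO replicate 2, Col1a2 was past them, at -0.89, and Col1a1 was at -0.087.

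**Figure D3:**
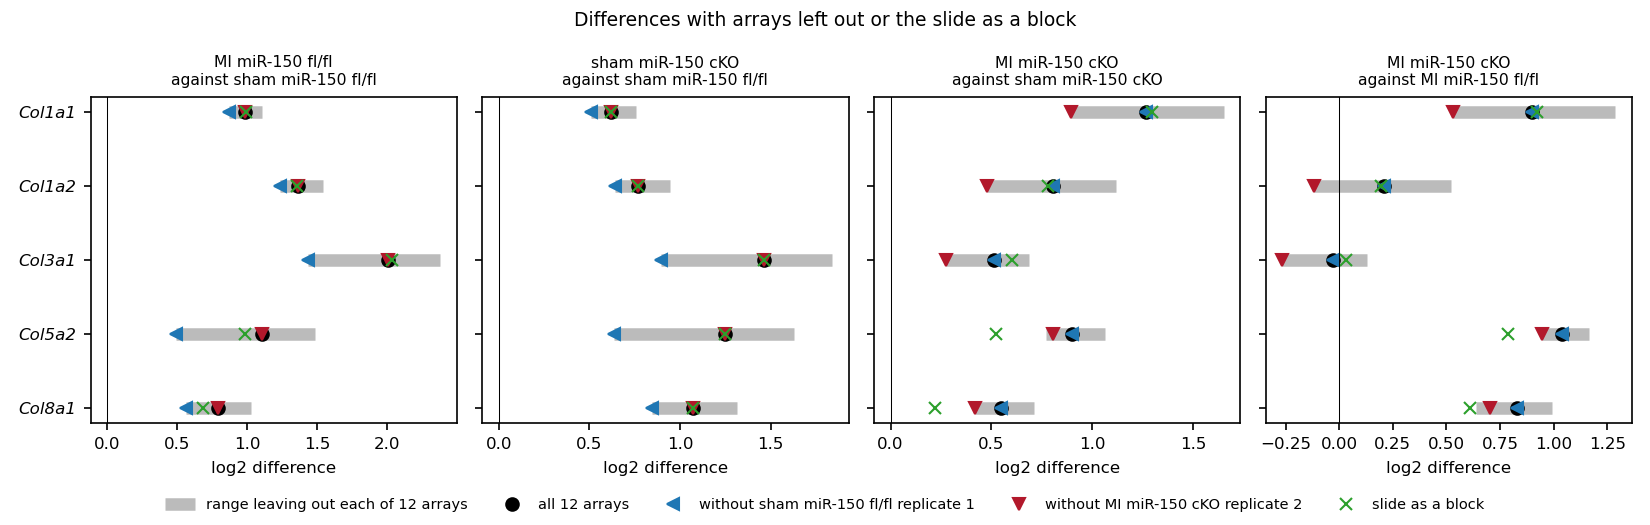
Log2 differences of the 5 collagens (x) in 4 comparisons with all 12 arrays (circles), without sham miR-150 fl/fl replicate 1 (left triangles), without MI miR-150 cKO replicate 2 (down triangles) and with the slide as a block (crosses); grey bands are the range when each array is left out. Leaving out the sham array moves Col3a1 and Col5a2 most in the first 2 comparisons, and leaving out the MI array moves the type I chains most in the others.

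On some arrays all 5 genes lay on the same side of their group mean, and on the others they split. All 5 genes were below their group mean in sham miR-150 fl/fl replicate 1, sham miR-150 cKO replicate 3 and MI miR-150 cKO replicate 1, and all 5 were above it in sham miR-150 fl/fl replicate 2 and MI miR-150 cKO replicate 2. In MI miR-150 fl/fl they split on every array, with mean deviations of 0.0036, -0.084 and 0.081. The share of all transcripts on the same side was not counted, and a shift of whole arrays was not tested. The mean of the 5, each centred on its own mean over the arrays, was -1.69, -0.52 and -0.89 in sham miR-150 fl/fl, 0.22, 0.13 and 0.30 in MI miR-150 fl/fl, 0.17, 0.03 and -0.19 in sham miR-150 cKO and 0.39, 1.27 and 0.77 in MI miR-150 cKO. The lowest MI miR-150 cKO heart was above the highest MI miR-150 fl/fl heart on this mean, a description, since the comparison chose 2 of the 5 genes.

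The type I partners followed each other from mouse to mouse. Across deviations from the group means, Pearson's r was 0.97 between Col1a1 and Col1a2 over 12 arrays, which share 3 arrays a group and a scale set by the 75th percentile. Among 53978 other transcripts, Col1a2 stood 1st in likeness to Col1a1 by this measure and Col1a1 stood 1st in likeness to Col1a2. Without the 3 MI miR-150 cKO arrays, which held the most distant points, r was 0.89 over 9 arrays. The group means played no part in this value, and it was not tested. Col3a1 and Col5a2, which are neighbours on chromosome 1 with no gene between them in the RefSeq table, followed next, with r of 0.92. Col5a2 stood 17th in likeness to Col3a1, and Col3a1 stood 36th in likeness to Col5a2. Without sham miR-150 fl/fl replicate 1 this r was 0.61 over 11 arrays. Over the 10 pairs of the 5 genes, r within groups ran from 0.36 (Col1a1 and Col5a2) to 0.97, with a median of 0.61. When replicate 1 of sham miR-150 fl/fl was left out, the lowest was 0.22, for Col5a2 and Col8a1, and Col3a1 and Col8a1 had 0.26 in place of 0.60.

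**Figure D4:**
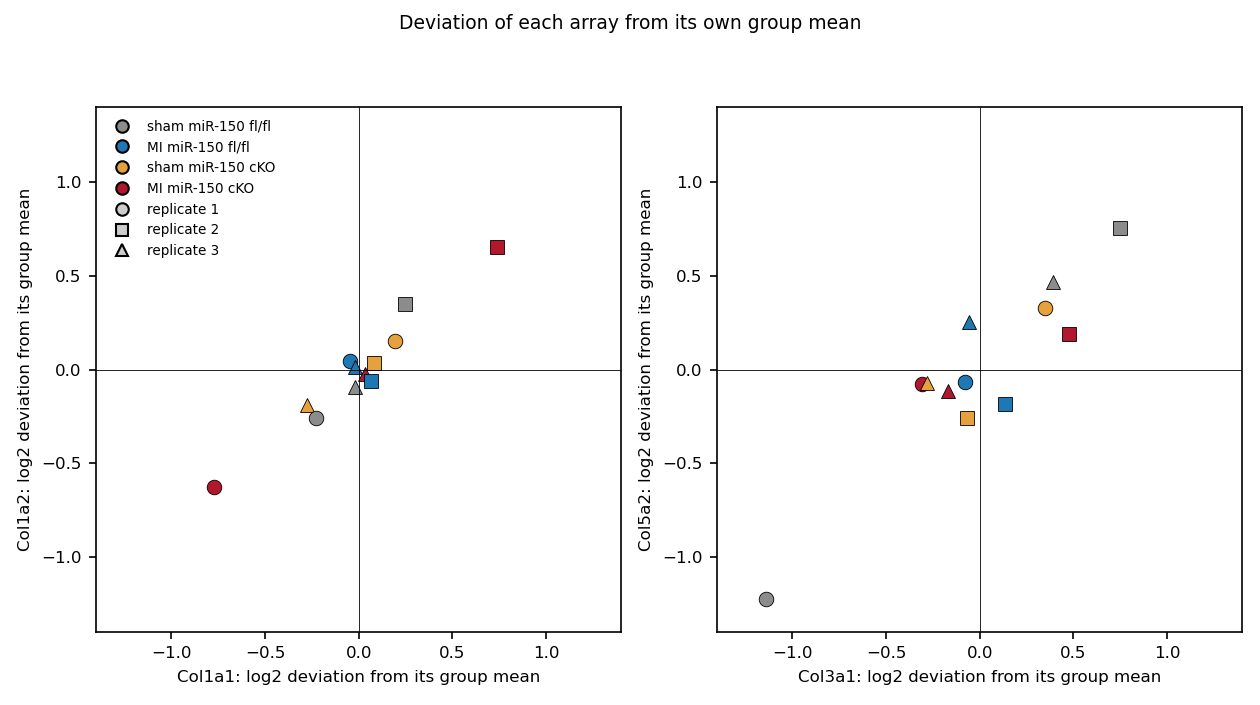
Deviation of each array from its own group mean on the log2 scale for Col1a1 (x) and Col1a2 (y) on the left and for Col3a1 (x) and Col5a2 (y) on the right; colours are the 4 groups and shapes the replicates. The type I partners lie along a line with r = 0.97, and on the right sham miR-150 fl/fl replicate 1 is far from the other arrays at the lower left.

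Over all 12 arrays, group differences included, the named genes most like the type I chains encode secreted proteins. For Col1a1 they were Prelp (r = 0.95), a proteoglycan that binds collagen, Col6a1 (0.94), a chain of the beaded-filament collagen VI, and Adamts2 (0.94), the protease that removes the amino end of fibrillar procollagens, in places 1 to 3 of 53974 transcripts. For Col1a2 they were Serpinf1 (0.96), Ltbp3 (0.96) and Adamts2 (0.95), in places 1, 2 and 4. For Col3a1 they were Tdpoz4 (0.95), Cthrc1 (0.94) and Serpinf1 (0.94), for Col5a2 Rab39b (0.94), Scara3 (0.92) and Panx1 (0.92), and for Col8a1 B4galnt1 (0.95), Nppa (0.94), the atrial natriuretic peptide, and Svep1 (0.94). For the mean of the 5 they were Panx1 (0.97), Serpinf1 (0.97) and Scara3 (0.96). Named genes had mostly passed the study's limits, so likeness across groups is a description with no p.

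Other genes of collagen biology were read from lists, in which genes mostly have a name because they had entered the study's lists. In a comparison that named a gene, its passing the limits was favoured by that choice and is no result about it. Passing was not assured, because the names rest on the deposited log2 values and an unpaired test. Of all transcripts tested, 0.881% were higher past the limits in MI against sham miR-150 fl/fl and 0.636% in sham miR-150 cKO against sham miR-150 fl/fl. The shares were 4.6% in MI against sham miR-150 cKO and 3.45% between the MI groups. Genes without a name could not be counted, so nothing is read from the counts below about the lists or markers. Among 39 further collagen genes 1 had a name, Col6a1. It was 0.93 higher on the log2 scale in MI than in sham miR-150 cKO (SE 0.15, adjusted p of 0.0245), with 3.69, 3.68 and 3.51 in sham against 4.34, 4.76 and 4.56 in MI, arrays that do not overlap. That comparison shares its MI miR-150 cKO arrays with the one that named Col6a1. The adjusted p was 0.0808 to 0.150 without replicate 2 or 3 of either group, 0.0514 with the replicate block, 0.107 with the compared groups alone and 0.646 with the slide as a block, and these groups lie on different slides.

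Of 30 genes of collagen maturation 4 had names. In MI against sham miR-150 fl/fl 3 of them were higher past the limits: Adamts2 by 1.12 (SE 0.22), and the crosslinking enzymes Loxl1 by 1.11 (SE 0.26) and Loxl2 by 0.65 (SE 0.19), all 3 named by that comparison. In sham miR-150 cKO against sham miR-150 fl/fl 2 were higher, Adamts2 and Loxl2 (0.69, SE 0.19), and 1, P4ha3, a prolyl hydroxylase subunit, was lower (-0.76, SE 0.25). That comparison had named Adamts2 and P4ha3. Only Adamts2 of the 4 was past the limits in MI against sham miR-150 cKO (0.86, SE 0.22, adjusted p of 0.0668), and 0 of 4 were between the MI groups. Without sham miR-150 fl/fl replicate 1 Loxl2 was no longer past the limits in either comparison with that group (0.43 and 0.46).

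Of 17 genes of fibril assembly and collagen binding 7 had names. All 7 were higher past the limits in MI against sham miR-150 fl/fl, the comparison that named them all, among them the fibroblast matrix protein Postn (2.75, SE 0.48), fibronectin, Fn1 (1.65, SE 0.40), and Cthrc1 (3.48, SE 0.66). In sham miR-150 cKO 4 of 7 were higher, 2 of them named by that comparison, among them Postn (2.63, SE 0.48), Cthrc1 (2.48, SE 0.66) and Comp (1.38, SE 0.40). Cthrc1 was well above background on all arrays but replicates 1 and 3 of sham miR-150 fl/fl, at -5.68 and -4.66, so that the size of its differences from that group is uncertain. Without replicate 1 of that group they were 2.85 and 1.85, Prelp was no longer past the limits in the first of these comparisons (0.56) and Bgn, a proteoglycan, was not in the second (0.43). In MI against sham miR-150 cKO 5 of 7 were higher past the limits, against 4.6% of transcripts. They were led by Fn1 (1.58, SE 0.40), Comp (1.38, SE 0.40) and Prelp (1.02, SE 0.22, adjusted p of 0.047). For Prelp the adjusted p was 0.133 to 0.201 without replicate 2 or 3 of either group, 0.0705 with the replicate block and 0.822 with the slide as a block, where it was not past the limits. Between the MI groups 2 of 7 were higher, Comp (1.21, SE 0.40) and Prelp (0.75, SE 0.22). That comparison had named Comp, and the number was 0 to 4 when 1 array was left out.

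Of 16 genes of collagen turnover 3 had names, the proteases Mmp3 and Ctsk and the inhibitor Timp2. All 3 were higher past the limits in MI against sham miR-150 fl/fl (0.96, 0.79 and 0.59), 2 in sham miR-150 cKO (Mmp3 by 0.98 and Ctsk by 0.63), 1 in MI against sham miR-150 cKO (Timp2 by 0.73), and 0 between the MI groups. All 3 had been named by MI against sham miR-150 fl/fl, and Mmp3 also by sham miR-150 cKO against sham miR-150 fl/fl. Without sham miR-150 fl/fl replicate 1 Timp2 was no longer past them in the first comparison (0.36), nor was Ctsk in the second (0.44). Of 9 collagen receptors 1 had a name, Lair1. It was named by sham miR-150 cKO against sham miR-150 fl/fl, where it differed by 0.44 (SE 0.22). Lair1 was past the limits in 0 of the 4 comparisons. Without sham miR-150 fl/fl replicate 1 it was past them in MI against sham miR-150 fl/fl (0.60). Of 17 profibrotic signalling genes 4 had names. The transforming growth factor Tgfb3 and the latency protein Ltbp3 were higher past the limits in MI against sham miR-150 fl/fl (0.62 and 0.70), which had named both, and 0 of 4 were in sham miR-150 cKO. Without that array Tgfb3 was no longer past them in the first (0.51), and Ctgf came to be in the second (1.17). In MI against sham miR-150 cKO 2 of 4 were higher, Ctgf by 0.81 (SE 0.36) and Tgfb3 by 0.76 (SE 0.21). Between the MI groups 3 of 4 were higher: Ctgf, connective tissue growth factor, by 1.60 (SE 0.36), Tgfb3 by 0.63 (SE 0.21) and Tgfb1 by 0.61 (SE 0.20). That comparison had named Ctgf and Tgfb1, and the number was 1 to 3 when 1 array was left out.

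**Figure D5:**
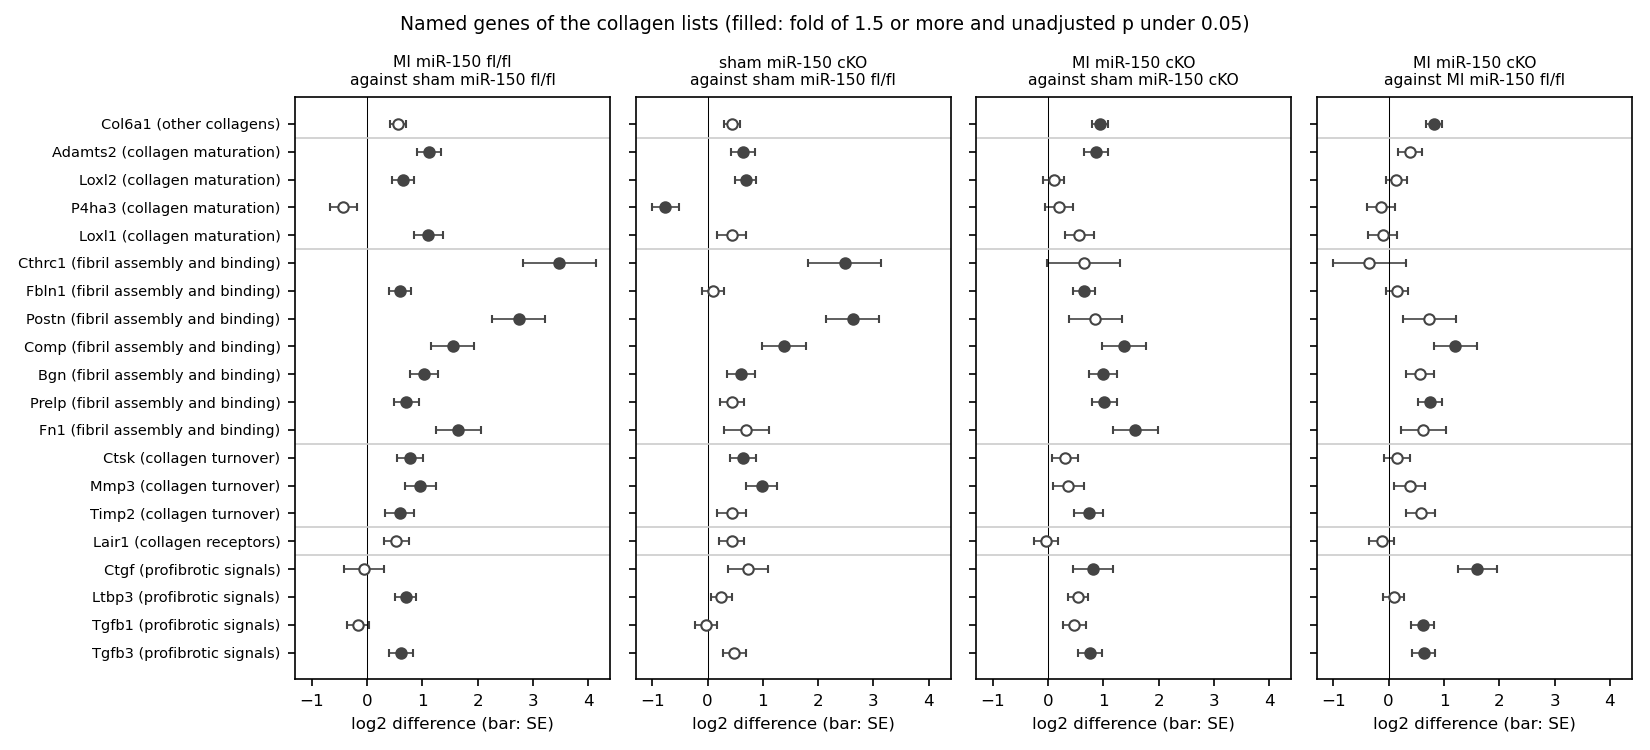
Log2 differences (points) with standard errors (bars) of the 20 named genes from the collagen lists in 4 comparisons; filled points are past the limits of 1.5-fold and unadjusted p of 0.05. The 7 genes of fibril assembly and binding are all filled in MI against sham miR-150 fl/fl, and Cthrc1 and Postn lie farthest from 0 there and in sham miR-150 cKO.

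The ventricle is a mixture of cells, and fewer cells of a type cannot be told apart from less RNA per cell in these samples. Of 10 cardiomyocyte markers 4 had names, and all were well above background on all 12 arrays. The natriuretic peptide Nppa and Myh7, the slow myosin heavy chain, were higher in MI miR-150 cKO than in MI miR-150 fl/fl, by 1.65 (SE 0.35) and 3.27 (SE 0.56), and the 2 transcripts of Tnnt2, cardiac troponin T, each differed by -0.55 there (SE 0.16 and 0.15), short of 1.5-fold. That comparison had named all 3 genes. In sham miR-150 cKO against sham miR-150 fl/fl Nppb and Myh7 were higher by 2.33 and 2.26 and Nppa also passed the limits, and in MI against sham miR-150 fl/fl Nppa and Nppb by 1.25 each. Both of these comparisons had named Nppa and Nppb. The summed signal of the 4 genes, in multiples of the 75th percentile, was 47.97 to 114.9 in sham miR-150 fl/fl and 92.6 to 113.3 in MI miR-150 fl/fl. It was 156.4 to 390.5 in sham miR-150 cKO and 402.8 to 485.2 in MI miR-150 cKO. Myh7 gave 27.7% to 66.1% of this sum, Nppa 12.9% to 37.4% and Nppb 6.12% to 30.5%. The Tnnt2 transcripts gave 0.946% to 17.6% and 0.789% to 14.7%. The sum thus describes mostly Myh7, Nppa and Nppb, and not Tnnt2, which was lower in MI miR-150 cKO than in MI miR-150 fl/fl.

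Of 10 fibroblast markers 3 had names, Dpt and, also in the list of fibril assembly, Postn and Cthrc1. All 3 were higher past the limits in MI against sham miR-150 fl/fl, which had named all 3, and in sham miR-150 cKO against sham miR-150 fl/fl, which had named Postn and Cthrc1. Dpt, higher by 0.63 in the latter, was no longer past them without sham miR-150 fl/fl replicate 1, where it differed by 0.32. In both comparisons with MI miR-150 cKO 0 of 3 were past the limits. MI miR-150 cKO against MI miR-150 fl/fl had also named Dpt. There Dpt differed by -0.46 (SE 0.23), Cthrc1 by -0.35 (SE 0.66) and Postn by 0.73 (SE 0.48). Their summed signal was 8.25 to 16.7 in sham miR-150 fl/fl, 25.9 to 29.8 in MI miR-150 fl/fl, 17.9 to 25.5 in sham miR-150 cKO and 20.9 to 26.1 in MI miR-150 cKO. Dpt gave 69.6% to 96.5% of this sum, which thus describes mostly that probe. Of 9 macrophage and leukocyte markers 3 had names, Emr1, Cd14 and Lyz2. All 3 were higher past the limits in sham miR-150 cKO against sham miR-150 fl/fl (0.75, 0.67 and 0.92), which had named them. Without sham miR-150 fl/fl replicate 1 only Lyz2 was (0.66). Lyz2 was also past them in MI against sham miR-150 fl/fl (0.72), but not without that array (0.46). The sums, of which Lyz2 gave 67.8% to 77.6%, were 15.0 to 28.4, 28.6 to 35.5, 31.96 to 44.5 and 23.2 to 36.8 in the same order of groups. The adipocyte marker with a name, 1 of 6, was Adipoq, with signals of 0.114 to 0.379, 0.704 to 2.83, 0.167 to 1.01 and 0.0992 to 0.210. None of 8 endothelial and 8 smooth muscle and pericyte markers had names. The part of these cell types in the collagen differences was not tested.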

How the data were processed

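Left ventricular RNA was labelled with Cy3 and hybridized to 1-colour Agilent arrays. For each array the authors deposited linear, background-subtracted intensity per spot from Agilent Feature Extraction 11.0.1.1, and log2 values of the same arrays, whose normalization is not given in the sources used here. Intensities were taken to log2, spots of a probe were averaged and each array was centred on its 75th percentile. A transcript was tested if 3 or more of the 12 arrays had it well above background (54232 of 60819). limma 3.58.1 in R 4.3.3 fitted 4 group means, with 8 residual degrees of freedom, and p-values were adjusted over all transcripts by the Benjamini-Hochberg method. The number of arrays limits the precision. Arrays were taken as separate mice, and p-values measure the spread between them.

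Names came from 963 entries of the study's lists, each matching 1 transcript within a relative tolerance of 2e-05 of fold and p, and 892 transcripts were named. Of these, 879 accessions were in the RefSeq table, GRCm38.p6, and 826 symbols were equal there. No other value of the lists was used, and the header build, mm9, gave no coordinates. The genes, gene lists, marker lists and tests were chosen with earlier results of these data known. Values are given for at most the 3 largest differences of a list in a comparison. Alternatives were quantile normalization, normexp with an offset of 50, the authors' log2 values, 2 other filters, the compared groups alone, the methods' unpaired test, sex, replicate, slide, and slide and row as terms, and leaving out each array. Added after seeing the data were differences within a slide, leaving out 2 arrays together, the lists without sham miR-150 fl/fl replicate 1, and Col6a1 and Prelp under every alternative. The method was tested on simulated data. Slides were inferred from scan records. Tables and figures used Python 3.11.15, pandas 2.3.3, numpy 2.4.6 and matplotlib 3.10.9.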

Additional observations from a re-analysis of the deposited data

How the results depend on the processing

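Of 565 values of single collagen genes under an alternative, 497 kept their direction and their side of the limits, 42 were no longer past them, 16 came to be past them and 10 changed sign. Other filters, the unpaired test or leaving out an array of an uncompared group leave a difference unchanged and alter only its SE. Part of this agreement was thus fixed in advance. The number of the 5 collagens past the limits in MI miR-150 fl/fl against sham miR-150 fl/fl was 3 with the methods' unpaired test, 2 with slide and row as a block and 3 to 5 when 1 array was left out. In sham miR-150 cKO against sham miR-150 fl/fl the median difference ran from 0.64 to 1.31 when 1 array was left out, and was 0.64 also without both sham miR-150 fl/fl replicate 1 and MI miR-150 cKO replicate 2. In MI against sham miR-150 cKO the number was 1 with the methods' unpaired test and 1 to 3 when 1 array was left out, and between the MI groups 1 to 3. In both of these limma put 0 past the limits with the slide, or slide and row, as a block, and 0 had an unadjusted p under 0.05; the methods' unpaired test, without the block, gave 1 and 2 with an unadjusted p under 0.05. For the interaction the number was 1 of 5, 0 with either block and 0 to 2 when 1 array was left out, and the median was -0.73 with slide and row as a block, against -0.25. Between the MI groups Col3a1, at -0.03, was 0.060 with normexp, 0.030 with slide or slide and row as a block, and -0.27 to 0.13 when 1 array was left out, above 0 without MI miR-150 cKO replicate 1 or 3 or MI miR-150 fl/fl replicate 2. Col1a2 ran from -0.12, without MI miR-150 cKO replicate 2, to 0.52. The interaction of Col5a2 was 0.077 with normexp and ran from -0.59 to 0.40, the latter without sham miR-150 fl/fl replicate 1, and that of Col1a1 ran from -0.087, without MI miR-150 cKO replicate 2, to 0.67. The cause was not tested.

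Of 18 pairs of same-numbered arrays 6 had a correlation of deviations over 0.1, with a median of 0.04. Of 36 pairs with different numbers 7 did, with a median of 0.00046. Whether same-numbered arrays share more than a number was not tested. With the replicate block the numbers past the limits were 5, 4, 2, 3 and, for the interaction, 1, as without it. With normexp, which moves dim signals most, the difference of Col1a1 in MI miR-150 fl/fl against sham miR-150 fl/fl was 0.57.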
